A study of Mus musculus with 6 samples.

Results

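Liver mRNA of 10 genes of the lipid-associated macrophage program was examined: Trem2, Tyrobp, Gpnmb, Cd9, Cd63, Spp1, Lgals3, Itgax, Cx3cr1 and Fabp5. They were chosen by symbol from the 40481 genes with symbols in the count table, and each symbol matched 1 line. The 10 genes and the gene lists below were chosen with earlier results of these data known. Shares over all genes given beside them are descriptions only. RNA-Seq reads were counted in livers of male C57BL/6 mice, 12 to 16 weeks old. Mttp-IKO mice carried floxed Mttp alleles (Mttp f/f) and Villin Cre ERT2, a tamoxifen-inducible Cre recombinase driven by the Villin promoter in intestinal epithelium, and received tamoxifen for 5 days to delete the microsomal triglyceride transfer protein gene in the gut. Controls are named wild type in the labels, but by the series description and the methods they were littermates of the same floxed Villin Cre line that were given vehicle. All mice then ate a methionine- and choline-deficient (MCD) diet for 3 weeks, begun 3 weeks after tamoxifen or vehicle, and were fasted for 4 h according to the labels and for 4 to 6 h according to the methods. Each genotype had 3 pools of liver RNA from 3 to 4 mice each according to the methods, the series description naming 12 livers by genotype, and the p-values therefore measure the spread between pools and not between mice. Because the deletion is in the intestine, the level of Mttp in liver does not check the labels.

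In steatotic liver, monocytes that enter from blood can become macrophages that take up lipid and debris, gather around dying, fat-laden hepatocytes and express a shared set of genes. Trem2, a lipid-sensing surface receptor, signals through Tyrobp (DAP12), an adaptor with an immunoreceptor tyrosine-based activation motif. The other genes encode lysosomal and membrane proteins, secreted matrix and sugar-binding proteins, surface receptors and a fatty acid carrier, and several of them are also made outside macrophages: Itgax in dendritic cells, Spp1 and Cd9 in bile duct cells, and Cd63 in most cells. Resident Kupffer cells, the macrophages that seed the liver before birth, are known instead by Clec4f and Timd4. In RNA of whole liver, fewer cells of a type and less RNA per cell cannot be told apart.

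The pools held 25271585 to 36238734 reads on genes, and a count of 0 allows up to 3 reads, or 0.0828 to 0.119 CPM (read counts scaled to library size), for counting error only. All 10 genes lay far above this limit, with 23 to 21893 reads per pool. Hepatocyte markers were abundant in every pool, with a summed level of 51950 to 86772 CPM over 6 markers in controls and of 103150 to 157420 CPM in Mttp-IKO livers. This sum was mostly Alb, with 40131 to 69005 CPM across control pools and 84785 to 132240 CPM across Mttp-IKO pools. Of the 6 markers 2 were higher in every Mttp-IKO pool than in every control pool, and 1, Ttr, was lower. Control pool 2 stood apart with 600 CPM over 6 striated muscle genes, against 72.6 and 1.06 CPM in the other control pools and at most 1.10 CPM across Mttp-IKO pools, and it also had the highest hepatocyte sum of the controls. Small RNA genes took 0.291% of the reads of Mttp-IKO pool 3, whereas their share elsewhere was 1.92% to 3.51%.

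All 10 genes had a lower mean level in Mttp-IKO livers, with log2 fold changes of -2.78 to -0.82 and a median of -1.76, against a median of 0.00572 over the 17287 genes tested, of which 49.5% had a negative value. Itgax, Cx3cr1, Trem2, Lgals3 and Fabp5 fell, that is, 5 of the 10 passed an adjusted p of 0.05 (edgeR's quasi-likelihood test, Benjamini-Hochberg over all genes tested), and 0 rose. Over all genes, 4.01% passed this threshold, 3.09% as lower and 0.920% as higher in Mttp-IKO livers. In 7 of the 10 genes every Mttp-IKO pool lay below every control pool, which held for 16.5% of all genes. Every log2 fold change stayed below 0 whichever pool was left out, but the number of the 10 genes past the threshold did not hold: it was 0 without control pool 1, control pool 3, Mttp-IKO pool 1 or Mttp-IKO pool 2 (7 to 10 genes had an unadjusted p under 0.05 in edgeR), 3 without Mttp-IKO pool 3 and 9 without control pool 2. Over all genes 24 passed without control pool 1, 21 without control pool 3, 55 without Mttp-IKO pool 1 and 0 without Mttp-IKO pool 2. In these runs 2476 to 4457 of the 17652 to 17943 genes tested had an unadjusted p under 0.05 in edgeR. Without Mttp-IKO pool 3 and without control pool 2 the calls over all genes were 864 and 892.

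**Figure D1:**
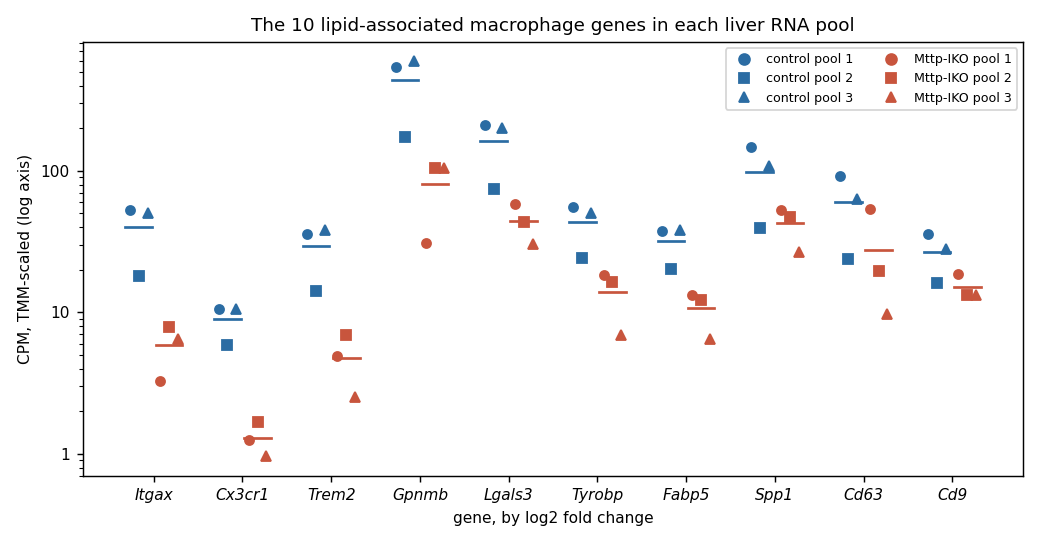
Level of each gene in each of the 6 pools, in TMM-scaled CPM on a log axis, with blue symbols for control and red for Mttp-IKO pools and a bar at the mean of each group of 3. Itgax, Cx3cr1, Trem2, Gpnmb, Lgals3, Tyrobp and Fabp5 have no overlap between genotypes, and control pool 2 (blue square) is the lowest control for all 10 genes.

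Among the surface receptors, Trem2 (ENSMUSG00000023992, GRCm38 chromosome 17, 48346401 to 48354147, + strand) had 36.0, 14.2 and 38.4 CPM across control pools 1, 2 and 3 and 4.90, 6.96 and 2.52 CPM across Mttp-IKO pools 1, 2 and 3. The lowest control pool was thus 2.04 times the highest Mttp-IKO pool. The means were 29.5 ± 13.3 and 4.79 ± 2.22 CPM (SD, n = 3 pools), a 6.13-fold lower level (log2 fold change -2.62, SE 0.465, adjusted p = 0.0293, edgeR). Its signaling partner Tyrobp (ENSMUSG00000030579, chromosome 7, 30413788 to 30417577, + strand) had 55.3, 24.1 and 50.6 CPM across control pools and 18.4, 16.4 and 6.96 CPM across Mttp-IKO pools. The groups did not overlap, but the difference did not pass the threshold (log2 fold change -1.64, SE 0.415, adjusted p = 0.0697, edgeR). Tyrobp serves many receptors of myeloid and natural killer cells besides Trem2.

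Itgax (ENSMUSG00000030789, chromosome 7, 128129547 to 128150656, + strand), which encodes the integrin chain CD11c of recruited macrophages and dendritic cells, had 52.7, 18.2 and 50.3 CPM across control pools and 3.29, 7.82 and 6.50 CPM across Mttp-IKO pools. It fell 6.89-fold (log2 fold change -2.78, SE 0.465, adjusted p = 0.0248, edgeR). Cx3cr1 (ENSMUSG00000052336, chromosome 9, 119901616 to 120068283, - strand), the receptor for the chemokine fractalkine on monocytes and macrophages, had 10.5, 5.91 and 10.6 CPM across control pools and 1.26, 1.68 and 0.965 CPM across Mttp-IKO pools. Cx3cr1 fell 6.87-fold (log2 fold change -2.78, SE 0.328, adjusted p = 0.0151, edgeR). It had the widest gap of the 10 genes, its lowest control pool being 3.51 times its highest Mttp-IKO pool. By p it ranked 31 of the 17287 genes tested, against rank 219 for Itgax and 279 for Trem2.

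The start regions of these 3 receptor genes are shown because they had the largest falls of the 10 genes and because they hold, or lack, the motifs searched. Each line gives the 250 bases before the start site in the RefSeq promoter table (GRCm38.p6), 5′ to 3′ on the gene's strand, with any motif match in capitals. The windows are chr17:48346151-48346400 (+) for Trem2, chr7:128129300-128129549 (+) for Itgax and chr9:120068297-120068546 (-) for Cx3cr1.
Trem2: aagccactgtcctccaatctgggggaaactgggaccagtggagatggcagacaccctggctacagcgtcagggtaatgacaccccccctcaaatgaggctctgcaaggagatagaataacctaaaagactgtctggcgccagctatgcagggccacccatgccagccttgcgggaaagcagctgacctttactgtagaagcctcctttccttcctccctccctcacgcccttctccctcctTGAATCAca
Itgax: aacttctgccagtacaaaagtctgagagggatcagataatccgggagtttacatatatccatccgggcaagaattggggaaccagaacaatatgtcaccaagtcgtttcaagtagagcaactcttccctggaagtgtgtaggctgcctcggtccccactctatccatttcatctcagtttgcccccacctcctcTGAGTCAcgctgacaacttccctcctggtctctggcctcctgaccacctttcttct
Cx3cr1: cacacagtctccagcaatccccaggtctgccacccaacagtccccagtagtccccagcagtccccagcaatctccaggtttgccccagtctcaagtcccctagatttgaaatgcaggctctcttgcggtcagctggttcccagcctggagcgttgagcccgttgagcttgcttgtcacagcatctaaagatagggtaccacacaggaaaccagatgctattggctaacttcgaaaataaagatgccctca

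The table held windows for 8 of the 10 genes, 9 windows in all, and none for Tyrobp and Fabp5. Both strands were searched for TGANTCA (a loose form of the AP-1 site, with its central base left open), CACGTG and CATGTG (cores bound by MiT/TFE factors, among others) and GAGGAAGT (PU.1 and other ETS factors), where N is any base and no match here overlapped another. TGANTCA was found for 2 genes, as TGAATCA from base -9 to -3 before the start site of Trem2 and as TGAGTCA from -56 to -50 before that of Itgax, and in 6.75% of all 32851 windows. The central base thus differed between these genes. GAGGAAGT was found for Spp1 (-113 to -106; 2.44% of all windows), CATGTG for Cd9 as its reverse complement (-38 to -33; 12.3% of all windows) and CACGTG for 0 of the 8 genes (6.02% of all windows). Such matches are descriptions of the sequence and say nothing of whether a factor bound there. Median GC content was 50.0% in the windows of these genes and 52.4% in all windows.

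Cx3cr1 was also a target of quantitative PCR in the study, with the primers cggtctggtgggaaatctgt (forward) and ttgggcttccggctgtt (reverse), which show which part of the transcript that assay reads. Both primers matched transcripts of Cx3cr1 and of no other gene in the GENCODE M21 annotation. The product of 57 nt lies at chr9:120052144-120052200 on the - strand, in the coding sequence and within a single exon, whereas the read counts cover all 3742 nt of annotated exons.

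Of the membrane and lysosomal genes, Gpnmb had the highest level in controls. Gpnmb (ENSMUSG00000029816, chromosome 6, 49036518 to 49058182, + strand), a transmembrane glycoprotein of lysosomes and the cell surface in lipid-laden macrophages, had 543, 173 and 593 CPM across control pools and 30.8, 104 and 105 CPM across Mttp-IKO pools. The groups did not overlap, and the mean was 5.45-fold lower, but with this spread the difference did not pass the threshold (log2 fold change -2.45, SE 0.580, adjusted p = 0.0588, edgeR). Without control pool 2 its adjusted p was 0.0252, and without control pool 3 it was 0.184.

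The tetraspanins gave the smallest differences of the 10 genes. Cd9 (ENSMUSG00000030342, chromosome 6, 125460266 to 125494791, - strand), which organizes adhesion and fusion complexes at the cell surface, had 35.7, 15.998 and 28.0 CPM across control pools and 18.7, 13.3 and 13.2 CPM across Mttp-IKO pools (log2 fold change -0.82, SE 0.297, adjusted p = 0.154, edgeR). Cd63 (ENSMUSG00000025351, chromosome 10, 128908919 to 128912816, + strand), a marker of late endosomes and lysosomes, had 92.4, 23.8 and 63.2 CPM across control pools and 53.4, 19.7 and 9.77 CPM across Mttp-IKO pools (log2 fold change -1.11, SE 0.645, adjusted p = 0.342, edgeR). In these genes control pool 2 lay below Mttp-IKO pool 1, so the genotypes overlapped. Exons of Cd9 share 30 nt with the antisense gene Gm26728, which had 26 reads in all pools together, and pseudogene copies of Cd9, Cd63 and Fabp5 are in the count table, so reads that fit a gene and its copy equally were not counted.

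Of the secreted proteins, Lgals3 fell and Spp1 did not pass the threshold. Lgals3 (ENSMUSG00000050335, chromosome 14, 47367751 to 47386160, + strand), which encodes galectin-3, a lectin that binds beta-galactosides, had 212, 74.1 and 202 CPM across control pools and 58.7, 43.5 and 30.5 CPM across Mttp-IKO pools. This was a 3.68-fold fall without overlap (log2 fold change -1.88, SE 0.412, adjusted p = 0.0483, edgeR). Spp1 (ENSMUSG00000029304, chromosome 5, 104435118 to 104441050, + strand), which encodes osteopontin, a matrix protein and cytokine, had 148, 39.3 and 108 CPM across control pools and 53.3, 47.4 and 26.8 CPM across Mttp-IKO pools. Control pool 2 lay below Mttp-IKO pools 1 and 2 (log2 fold change -1.22, SE 0.458, adjusted p = 0.168, edgeR).

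Fabp5 (ENSMUSG00000027533, chromosome 3, 10012548 to 10016607, + strand), an intracellular carrier of fatty acids in macrophages and epithelia, had 37.8, 20.2 and 38.2 CPM across control pools and 13.3, 12.2 and 6.46 CPM across Mttp-IKO pools. The 3.00-fold fall came without overlap (log2 fold change -1.58, SE 0.336, adjusted p = 0.0448, edgeR). Lgals3 and Fabp5 passed the threshold by little, and with limma-voom in place of edgeR their adjusted p was 0.0657 and 0.0600.

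Per kilobase of exon, as RPKM, the 10 genes formed a high and a low group in controls. The divisor was all annotated exon sequence of a gene, 564 nt for Tyrobp, 3567 nt for Fabp5 and 4946 nt for Trem2. The order between genes therefore depends on the annotation. In CPM, which has no length divisor, the control means of these genes were closer, with 43.4, 32.1 and 29.5. Gpnmb led with 115 ± 60.3 RPKM, followed by Lgals3 with 87.5 ± 41.3, Tyrobp with 76.9 ± 29.8, Spp1 with 59.9 ± 33.5 and Cd63 with 58.0 ± 33.4 RPKM (SD, n = 3 pools). Neighbors in this order overlapped between pools. The pools of Cd63, the lowest of this group, did not overlap those of Cd9, which led the low group with 7.83 to 17.5 RPKM, ahead of Itgax with 9.98 ± 4.76, Fabp5 with 8.99 ± 2.89 and Trem2 with 5.97 ± 2.69 RPKM, again with overlap between neighbors. Cx3cr1 was lowest with 2.41 ± 0.717 RPKM, below every pool of Trem2.

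In Mttp-IKO livers the order within the high group turned over. Cd63 was first with 26.8 ± 22.2 RPKM, Spp1 had 25.8 ± 8.45, Tyrobp 24.7 ± 10.8, Lgals3 23.8 ± 7.59 and Gpnmb 21.1 ± 11.3 RPKM, so the 5 genes were within the spread of each other. Gpnmb took 23.1% to 29.5% of the RPKM summed over the 10 genes in control pools, and 4.72%, 19.4% and 29.9% in Mttp-IKO pools 1, 2 and 3. Cd63 took 11.6% to 15.3% in control pools and 30.2%, 13.5% and 10.2% in Mttp-IKO pools. For Gpnmb, Mttp-IKO pools 1 and 2 lay below the range of the controls and Mttp-IKO pool 3 just above it. For Cd63, Mttp-IKO pool 1 lay above the range of the controls, pool 2 within it and pool 3 below it. Spp1 took 12.1% to 15.4% in control pools and more in every Mttp-IKO pool, 18.9%, 20.3% and 17.5%, and the share of Cd9 was also higher in every Mttp-IKO pool. Lgals3 took 19.4% to 20.6% in control pools and 16.5% to 18.4% in Mttp-IKO pools, and the shares of Trem2, Itgax and Cx3cr1 were likewise below every control pool in every Mttp-IKO pool.

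The spread between pools of the same genotype was shared by the 10 genes in controls. Control pool 2 was the lowest control for all 10, at 0.305 to 0.560 of the mean of the other control pools, with a median of 0.370. The same pool had 0.614 of that mean in the summed level of 15 pan-macrophage and monocyte genes, 0.757 in that of 8 Kupffer cell genes, 1.45 in that of 6 hepatocyte genes and 16.3 in that of 6 striated muscle genes. The Kupffer cell sum was mostly Cd5l, with 236, 124 and 223 CPM across control pools 1, 2 and 3, and single genes went both ways. Cd5l, Marco, Vsig4 and Spic were lowest of the controls in control pool 2, and Clec4f, Timd4, Cd163 and Folr2 were highest there. The part of muscle RNA and of hepatocyte content in the low values of control pool 2 was not tested.

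In Mttp-IKO livers pool 3 was the lowest for 8 of the 10 genes, but 2 genes broke the order. Gpnmb and Itgax were lowest in Mttp-IKO pool 1, at 0.293 and 0.459 of the mean of pools 2 and 3, whereas Cd63 was highest there, at 3.62 times that mean. After the mean of each genotype was subtracted from log2 CPM, the 45 pairs of genes had Pearson r values over the 6 pools of -0.0909 (Gpnmb and Cd63) to 0.997 (Tyrobp and Fabp5), with a median of 0.839. The paired genes share libraries and depth, so these values describe the 6 pools only.

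**Figure D2:**
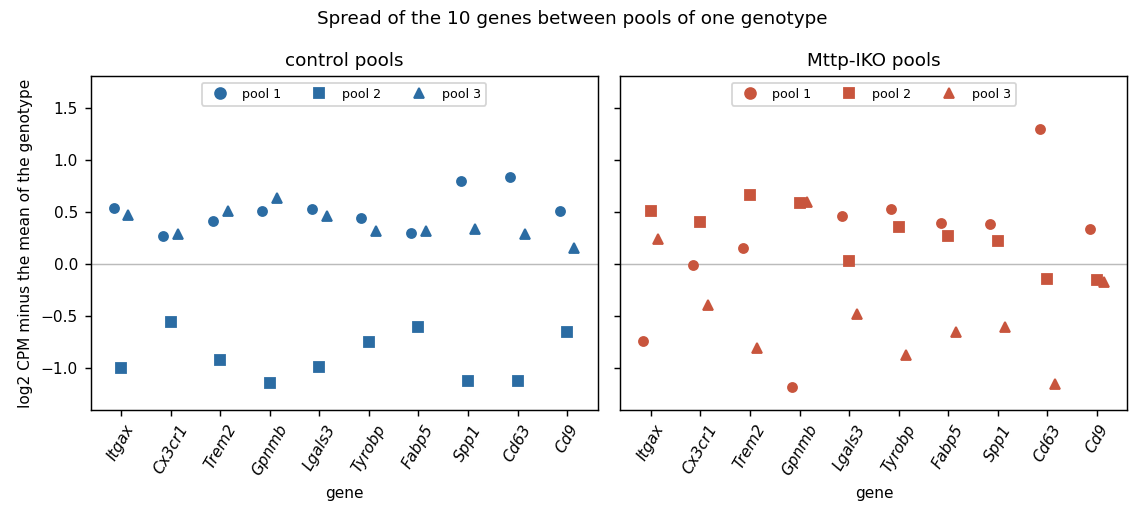
Log2 CPM of each gene in each pool minus the mean of its genotype, with control pools on the left, Mttp-IKO pools on the right and a symbol for each pool. Control pool 2 (squares, left) lies below 0 for all 10 genes, whereas in Mttp-IKO pool 1 (circles, right) Itgax and Gpnmb are low and Cd63 is high.

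Other genes of the same program were mostly lower too. Of 26 listed genes 25 were tested, and 8 fell and 0 rose (edgeR, adjusted p under 0.05), with 23 values below 0 and a median log2 fold change of -1.20. The falls were those of Mmp12, a macrophage elastase (188, 77.8 and 240 CPM across control pools and 12.7, 26.2 and 36.9 CPM across Mttp-IKO pools, log2 fold change -2.74), Capg, an actin-capping protein (-2.56), Clec7a, the beta-glucan receptor dectin-1 (-2.33), Ms4a7 (-2.23), Slc37a2 (-1.89), Atp6v0d2, a proton pump subunit (-1.50), Cd36, a scavenger receptor for lipids (-1.31), and Axl, a receptor for dying cells (-1.23). Cd68, a lysosomal glycoprotein of macrophages, missed the threshold by little (121, 56.9 and 122 CPM across control pools and 44.4, 39.2 and 25.9 CPM across Mttp-IKO pools, log2 fold change -1.45, adjusted p = 0.0507, edgeR). Apoe, an apolipoprotein that hepatocytes also make in quantity, had a log2 fold change of -0.24 (adjusted p = 0.702, edgeR), and Plin2, a lipid droplet coat protein, had one of 0.08 (adjusted p = 0.898, edgeR). The lysosomal proteases Ctsb (1392, 808 and 1247 CPM across control pools and 580, 548 and 591 CPM across Mttp-IKO pools, adjusted p = 0.0574, edgeR) and Ctsd (log2 fold change -0.96, adjusted p = 0.0749, edgeR), which many liver cells express, were lower in every Mttp-IKO pool without passing the threshold. The count of 8 was 0 without control pool 1, control pool 3, Mttp-IKO pool 1 or Mttp-IKO pool 2 (12 to 16 at an unadjusted p under 0.05 in edgeR) and 12 without control pool 2. Over all genes 0 to 55 passed in the former runs and 892 without control pool 2.

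**Figure D3:**
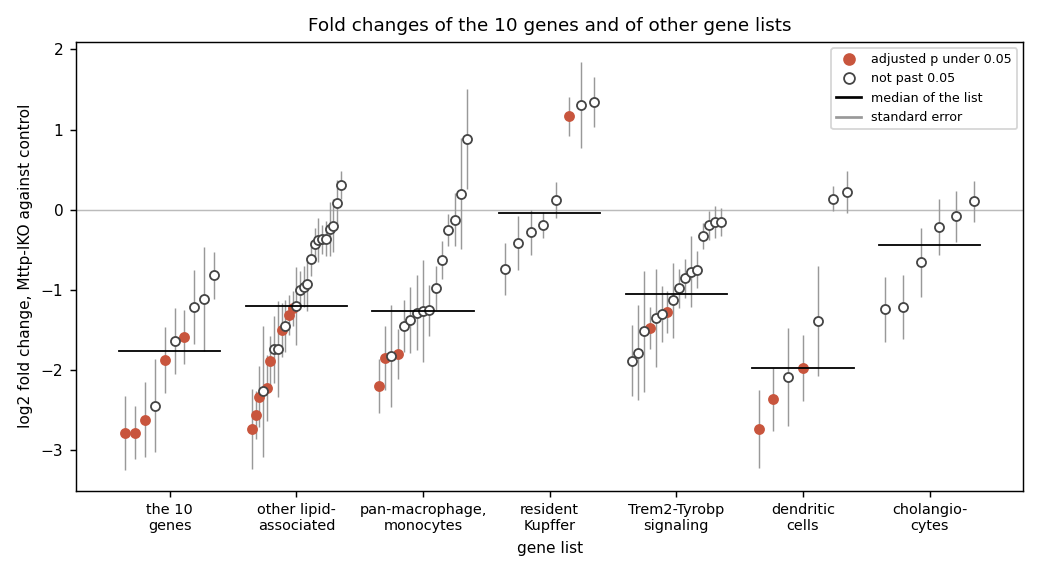
Log2 fold change of each tested gene with its standard error, by list, with red points past an adjusted p of 0.05 and a black line at the median of the list. The 10 genes have a median of -1.76, the other lipid-associated macrophage genes one of -1.20 and the Kupffer cell genes one of -0.03. The median is -1.98 for dendritic cell genes, -1.26 for pan-macrophage and monocyte genes, -1.06 for signaling genes and -0.44 for bile duct genes.

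Of the 16 genes listed for signaling by Trem2 and Tyrobp, 2 fell and 0 rose, with a median log2 fold change of -1.06. The falls were those of Syk, the kinase that binds the phosphorylated Tyrobp motif (68.4, 32.7 and 58.3 CPM across control pools and 22.7, 20.0 and 23.5 CPM across Mttp-IKO pools, log2 fold change -1.27, adjusted p = 0.0422, edgeR), and Plcg2, the phospholipase downstream of it (log2 fold change -1.48, adjusted p = 0.0300, edgeR). Hcst (DAP10), the adaptor that pairs with Tyrobp, had a log2 fold change of -0.77 (adjusted p = 0.333, edgeR). The proteases that shed Trem2 from the cell surface had values nearer 0, with -0.16 for Adam10 (adjusted p = 0.674, edgeR) and -0.33 for Adam17 (adjusted p = 0.266, edgeR).

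Of 8 ligands and partners of osteopontin and of the fractalkine receptor, 1 fell and 0 rose. The fall was that of the integrin chain Itgb5 (133, 112 and 123 CPM across control pools and 75.5, 72.1 and 76.6 CPM across Mttp-IKO pools, log2 fold change -0.71, adjusted p = 0.0405, edgeR). Cd44, the hyaluronan and osteopontin receptor, did not overlap between genotypes but did not pass the threshold (log2 fold change -1.27, adjusted p = 0.0587, edgeR). Itgb3, a chain of another osteopontin receptor, had 33.6, 19.0 and 27.8 CPM across control pools and 44.0, 52.5 and 44.7 CPM across Mttp-IKO pools, higher in each of them (log2 fold change 0.81, adjusted p = 0.0800, edgeR). DESeq2 called 3 genes of this list lower and 1 higher. Cx3cl1, which encodes fractalkine, the ligand of Cx3cr1, had 7.81, 2.11 and 4.31 CPM across control pools and 2.32, 2.09 and 1.30 CPM across Mttp-IKO pools (log2 fold change -1.31, adjusted p = 0.154, edgeR). The receptor was thus past the threshold and the ligand not, and the difference between them was not tested.

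Of 20 tested relatives of the 10 genes, 4 fell and 0 rose. Lgals1, the galectin-1 gene, had 59.5, 35.2 and 53.1 CPM across control pools and 11.1, 6.07 and 3.52 CPM across Mttp-IKO pools (log2 fold change -2.83, adjusted p = 0.0181, edgeR), whereas the broadly expressed Lgals8 had a log2 fold change of 0.01. Itgb2, the beta chain that pairs with Itgax, fell (log2 fold change -1.77, adjusted p = 0.0292, edgeR), and Itgam, another alpha chain of Itgb2, had a log2 fold change of -1.25 (adjusted p = 0.0698, edgeR). Ccr2, the chemokine receptor that brings monocytes out of the bone marrow, had 10.8, 5.10 and 9.75 CPM across control pools and 1.58, 1.71 and 2.31 CPM across Mttp-IKO pools (log2 fold change -2.20, adjusted p = 0.0192, edgeR). Fabp7 also fell (log2 fold change -1.48, adjusted p = 0.0300, edgeR), while Fabp4, the carrier of adipocytes and macrophages, had a log2 fold change of -1.42 (adjusted p = 0.162, edgeR). Cd81, a widely expressed tetraspanin, had 257, 267 and 257 CPM across control pools and 260, 281 and 203 CPM across Mttp-IKO pools (log2 fold change -0.07, adjusted p = 0.854, edgeR).

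Of 15 pan-macrophage and monocyte genes 3 fell, Ccr2, Lyz2 and Ly6c2, whereas genes of resident Kupffer cells lay on both sides of 0. For the first list the median log2 fold change was -1.26, and the summed level was 664 to 1092 CPM across control pools and 506 to 576 CPM across Mttp-IKO pools. Csf1r, the receptor for macrophage colony-stimulating factor, had a log2 fold change of -0.62 (adjusted p = 0.174, edgeR). Of 8 Kupffer cell genes 1 rose and 0 fell, and the median log2 fold change was -0.03. The rise was that of Timd4, a receptor for phosphatidylserine on dying cells, with 4.44, 5.21 and 4.56 CPM across control pools and 14.2, 9.43 and 8.22 CPM across Mttp-IKO pools (log2 fold change 1.16, adjusted p = 0.0425, edgeR). Clec4f, a lectin made by Kupffer cells, had 84.5, 90.2 and 80.1 CPM across control pools and 85.7, 71.2 and 66.2 CPM across Mttp-IKO pools (log2 fold change -0.19, adjusted p = 0.503, edgeR). Cd163 was higher in every Mttp-IKO pool without passing the threshold (log2 fold change 1.34, adjusted p = 0.0560, edgeR). Its levels were 18.9, 39.2 and 24.1 CPM across control pools and 86.9, 73.1 and 48.5 CPM across Mttp-IKO pools. Marco (1.31) and Vsig4 (0.12) also lay above 0, and Cd5l (-0.74), Spic (-0.42) and Folr2 (-0.28) lay below it, none past the threshold. The median thus lay between values of opposite sign.

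To compare the 10 genes with macrophage markers in the same pool, the log2 ratio of their RPKM was taken. Of the Kupffer cell genes only Clec4f served as a reference, and ratios to the others were not taken. Relative to Clec4f all 10 were lower on average in Mttp-IKO pools, by 0.57 to 2.58 with a median difference of -1.53, and 7 were lower in every Mttp-IKO pool, against 9% of all genes. In 0 of the 10 was every Mttp-IKO pool higher, against 20.9% of all genes. For Trem2 the log2 ratio to Clec4f was -2.23, -3.67 and -2.06 in control pools and -5.13, -4.36 and -5.72 in Mttp-IKO pools. Relative to Adgre1, which encodes the macrophage antigen F4/80, 7 of the 10 were lower in every Mttp-IKO pool, against 2.57% of all genes, with a median difference of -0.79. Adgre1 itself had 63.5, 31.6 and 53.3 CPM across control pools and 31.4, 21.7 and 22.1 CPM across Mttp-IKO pools (log2 fold change -0.98, adjusted p = 0.0895, edgeR). Ratios to Adgre1 therefore show smaller falls than the levels of the genes themselves. Cx3cr1 differed most, with log2 ratios to Adgre1 of -2.80, -2.62 and -2.53 in control pools and -4.85, -3.90 and -4.73 in Mttp-IKO pools. Cd9 was the exception, with every Mttp-IKO pool above every control pool (-0.16, -0.31 and -0.26 in controls and -0.09, -0.04 and -0.08 in Mttp-IKO pools), as were 38.1% of all genes.

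Relative to Csf1r the result was like that for Adgre1, with 7 of the 10 lower in every Mttp-IKO pool (5.02% of all genes), 0 higher in every pool (28.5% of all genes) and a median difference of -1.12. Relative to Cd68 it was smaller: Trem2, Itgax, Cx3cr1 and Fabp5 were lower in every Mttp-IKO pool (0.781% of all genes), Cd9 was higher in every pool (64.2% of all genes), and the median difference was -0.32. With 3 pools in each group, the smallest two-sided p of an exact permutation test is 0.1, so a ratio without overlap has that p and no ratio can pass 0.05.

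**Figure D4:**
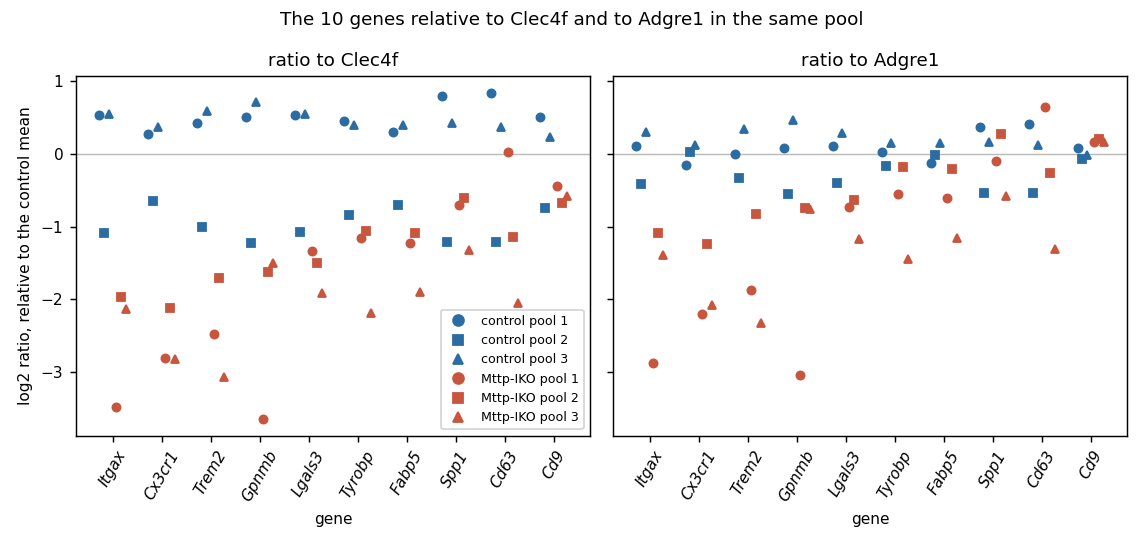
Log2 ratio of the RPKM of each gene to that of Clec4f (left) and of Adgre1 (right) in the same pool, relative to the mean of the 3 control pools, with blue symbols for control and red for Mttp-IKO pools. Itgax, Cx3cr1, Trem2, Gpnmb, Lgals3, Tyrobp and Fabp5 lie lower in every Mttp-IKO pool in both panels, and Cd9 lies higher relative to Adgre1.

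Markers of other cells that can express some of the 10 genes also differed in places. Of 7 dendritic cell genes 3 fell, Ccr7 (log2 fold change -2.73), Flt3 (-2.37) and Itgae (-1.98), and their summed level was 28.2 to 38.3 CPM across control pools and 22.1 to 32.1 CPM across Mttp-IKO pools. Zbtb46, a factor of conventional dendritic cells, had 13.6, 13.6 and 12.3 CPM across control pools and 13.3, 15.7 and 14.6 CPM across Mttp-IKO pools. Of the remaining genes of this list, Xcr1 and Cd209a had log2 fold changes of -2.08 and -1.39 and Clec9a one of 0.22. Their adjusted p was 0.0974, 0.275 and 0.649 (edgeR). Of 7 stellate cell genes 4 fell and 0 rose, with a median log2 fold change of -1.65, whereas 3.09% of all genes fell. The falls were those of Ngfr (log2 fold change -2.78), Lrat (-1.71), Colec11 (-1.65) and Pdgfrb (-1.20). The summed level of 6 bile duct genes was 31.4 to 48.8 CPM across control pools and 23.4 to 41.8 CPM across Mttp-IKO pools. The part of dendritic and bile duct cells in the levels of Itgax, Spp1 and Cd9 was not tested.

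For 10 further lists edgeR called 0 genes: neutrophils (0 of 5 tested genes at an unadjusted p under 0.05), T and NK cells (1 of 5), B cells (2 of 3), bile duct cells (2 of 6), endothelial cells (0 of 5), hepatocytes (3 of 6), striated muscle (2 of 2), adipocytes (1 of 2), pancreas (0 of 1) and small intestine (0 of 3). Over all 17287 genes tested, 3977 had an unadjusted p under 0.05 in edgeR. With DESeq2, 2 B cell, 1 bile duct and 2 striated muscle genes were called lower and 3 hepatocyte genes higher, and with limma-voom 0 genes of these lists were called. No listed marker was at 0 in all pools.

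The number of calls in these gene lists changed with the pool left out as well, as did that over all genes, and the cause was not tested. Without control pool 1, control pool 3, Mttp-IKO pool 1 or Mttp-IKO pool 2, edgeR called 0 genes of the signaling, partner, pan-macrophage, Kupffer and dendritic cell lists and 0 or 1 of the relatives and of the stellate cell genes. Over all genes it called 0 to 55 in these runs and 892 without control pool 2. Without control pool 2, the pool with the most muscle RNA, it called 8 signaling genes, 2 partners, 7 relatives, 6 pan-macrophage genes, 3 dendritic and 5 stellate cell genes lower and 1 Kupffer cell gene higher. Limma-voom called 0 signaling genes (10 at an unadjusted p under 0.05) and 0 Kupffer cell genes (3 at that level). Over all 17287 genes it called 428, with 3867 at that level.

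Among 11789 protein-coding genes with an average log2 CPM of at least 1, those most like the mean standardized profile of the 10 genes over the 6 pools were Ggta1, with r = 0.999, Ncapd2, with r = 0.997, and Asap1, Cd68, Fxyd5, Cd300ld, Tnfaip2, Ctsd, Unc93b1 and Agpat4, all with r from 0.995 to 0.996. After the mean of each genotype was subtracted, r was 0.983 to 0.996, which is no further support because the same 6 pools chose these genes. Of the genes so found, Cd68 and Ctsd, a lysosomal protease, were in the list of the same program. Their size of difference varied, from a log2 fold change of -0.31 for Asap1 to one of -1.45 for Cd68, and only Fxyd5 passed the threshold (log2 fold change -1.29, adjusted p = 0.0390, edgeR).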

How the data were processed

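The members and gene lists were chosen with earlier results of these data known. The authors deposited raw counts per gene, with CPM and RPKM derived from them; per the methods, reads were aligned by STAR 2.5.1a to the Ensembl release 76 assembly (GRCm38), and uniquely aligned, unambiguous reads were counted by featureCounts 1.4.6-p5. The strand setting is not given in the sources used here. Only the counts were tested. A table of all pools held the same counts with symbols, and 276 repeated lines were dropped. Counts of each pair of pools of the same genotype differed by more than sampling noise.

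Genes were filtered by filterByExpr (minimum count 10), scaled by TMM and compared by genotype with edgeR 4.0.16 (R 4.3.3, glmQLFit and glmQLFTest), and p-values of 17287 genes were adjusted by Benjamini-Hochberg. The methods name no test for differential expression. CPM and RPKM values here are TMM-scaled. The genes named are the 10 members, of each list up to 5 genes past the threshold with the largest change and preset partners, and the 10 genes most like the members. Atp6v0d2, Cd36, Axl, Plin2, Ctsb, Ctsd, Itgb3, Lgals8, Zbtb46, Xcr1, Cd209a, Clec9a, Cd5l, Marco, Vsig4, Spic, Cd163 and Folr2 were named after their values were seen. Alternatives were DESeq2 1.42.0, limma-voom 3.58.1, other scalings and filters, robust dispersion, removal of a loess trend with gene length (span 0.3), the replicate number as a block, and leaving out each pool. The tests were first tested on simulated data. Figures were drawn with matplotlib 3.10.9.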

Additional observations from a re-analysis of the deposited data

How the results depend on the processing

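All 10 genes kept a negative log2 fold change under all 18 alternatives, from -3.16 for Itgax without control pool 2 to -0.56 for Cd9 without control pool 1. Of the 10, 5 passed the threshold in edgeR, 3 with limma-voom, and 0 to 9 when a pool was left out. The count of other lipid-associated macrophage genes was 8, 14 with the DESeq2 Wald test, and 0 to 12 when a pool was left out. Over all genes 694 passed, 1995 with the DESeq2 Wald test, 428 with limma-voom, and 0 (without Mttp-IKO pool 2, with 3221 at an unadjusted p under 0.05 in edgeR) to 892 (without control pool 2) when a pool was left out. Scaling by total counts shifted the median of all genes to -0.18 and gave 907 lower and 112 higher genes, against 535 lower and 159 higher with TMM, and 7 of the 10. Same-numbered pools had correlations of their deviations of 0.139, 0.112 and 0.00698. Each control pool correlated best with the Mttp-IKO pool of its number, but Mttp-IKO pool 3 correlated best with control pool 2 (0.0208). In the main test the numbers in the labels were taken as names of pools only. With the replicate number as a block, 2 of the 10 passed (Itgax and Cx3cr1), and 3 with the block and the gene length trend removed. The causes of these changes were not tested. With 3 pools per genotype each call rests on few samples, and lower depths were not tried.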
